A study of Mus musculus with 6 samples.

Results

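Toll-like receptor and NF-kappaB signalling was followed through 40 genes in macrophages sorted from mouse pancreatic tumours by their Cxcr4, the receptor for the chemokine Cxcl12. The genes were taken by symbol from a table of 53647 genes, where each of the 40 symbols stood once. They comprised 11 receptors (Tlr1 to Tlr9, Tlr13 and the Tlr4 partner Ly96), 4 adaptors, 9 genes of the kinase relay, 3 of the IKK complex, 5 NF-kappaB factors and 8 inhibitors and feedback genes. RNA-seq libraries numbered 6, with 3 for each sorted population, Cxcr4+ and Cxcr4-. All came from C57BL/6 mice with an orthotopic model of pancreatic ductal adenocarcinoma, so the groups shared strain, tumour model and tissue. The labels list Cxcr4+ and Cxcr4- as genotypes, while the protocol describes a sort by Cxcr4 expression, and no other treatment is named. The sources used here do not give the age or sex of the mice, the tumour cells implanted, the markers that defined a macrophage or whether libraries came from separate mice. The p-values therefore measure the spread between these libraries, which may be technical.

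Toll-like receptors recognise conserved molecules of microbes and of damaged cells. Those at the cell surface read lipids and proteins, and those in endosomes read nucleic acids. All but Tlr3 signal through the adaptor Myd88 and the IRAK kinases to the ubiquitin ligase Traf6 and the kinase Map3k7, known as TAK1. That relay activates the IKK complex, which marks IkappaB proteins for destruction and so frees NF-kappaB dimers to enter the nucleus. Among the genes that NF-kappaB switches on are its own inhibitors, and in macrophages the same path drives cytokine and chemokine production.

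The libraries held 46444934 to 55740671 estimated counts, and the 3 deepest were those of Cxcr4+ macrophages. Cxcr4 itself had 9.18, 9.04 and 9.59 FPKM in Cxcr4+ replicates 1 to 3 and 8.56, 5.97 and 7.73 in Cxcr4- replicates 1 to 3, a ratio of means of 1.25. FPKM, a fragment count scaled to gene length and library size, was used to compare levels between genes. The summed FPKM of 8 macrophage markers, mostly Lyz2 and Cd68, lay between 7371 and 9194 in Cxcr4+ libraries and between 6566 and 7835 in Cxcr4- libraries. The complement gene C1qa stayed under 0.5 in every library. By single marker, C1qa lay higher and Mertk lower in every Cxcr4+ library, where 5.5% and 4.87% of all tested genes did so. The groups overlapped for the other macrophage markers, and 0 of the 8 passed the test between the groups. Markers of dendritic cells (0.0561 to 0.178 summed FPKM over all libraries), B cells (0.156 to 0.621) and NK cells (at most 0.0346) were low. T cell markers summed to 1.35 to 1.77 FPKM, nearly all of it from Lck (1.28 to 1.70). Fibroblast markers, of which Lum was at 0, summed to 17.2, 3.53 and 4.19 FPKM in Cxcr4+ replicates 1 to 3, while the Cxcr4- sums lay between 2.31 and 3.28. Epithelial markers summed to 1.81 to 3.31 and 3.50 to 6.25 FPKM in the respective groups, and neutrophil markers to 6.62 to 9.34 and 7.08 to 10.2. Mitochondrial transcripts summed to between 52340 and 59590 FPKM with Cxcr4+ and between 45260 and 49710 with Cxcr4-. The fibroblast, epithelial and mitochondrial sums did not overlap between the groups, and their part in the results was not tested. In such bulk libraries, fewer cells of a type and less RNA per cell cannot be told apart.

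None of the 40 genes passed the test between Cxcr4+ and Cxcr4- macrophages. Of the 39 that could be tested, edgeR called 0 higher and 0 lower (quasi-likelihood, adjusted p below 0.05), where 0.0125% of all 16031 genes were called higher, 0.0187% lower and 0.0312% in either direction. DESeq2 called 0 members, beside 0.3% of all genes, with 2 at an unadjusted p under 0.05. A fit by limma-trend on log2(FPKM + 1) called 0, with 1 at that level. The shares of all genes at that unadjusted level in DESeq2 and limma-trend are not given here. In edgeR an unadjusted p under 0.05 was reached by 2 of the 39, Tlr3 and Nfkbie, beside 4.85% of all genes. The FPKM of the groups did not overlap for 5 of the 39, beside 10.4% of all genes. Tlr3, Tlr4, Irak2 and Nfkbie lay higher in every Cxcr4+ library, where 5.5% of all genes did so, and Nfkbiz lay lower, where 4.87% did. Fitted log2 fold changes, Cxcr4+ over Cxcr4-, were positive for 16 and negative for 23 of the 39, with a median of -0.04, beside 0.0004 over all genes tested.

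The libraries bounded the difference closely for many of these genes and loosely for others. For 21 of the 39, the 95% interval of the fitted difference lay within 1.5-fold in either direction, beside 47.3% of all genes tested. All 21 were among the 36 members whose mean reached 1 FPKM, and of all genes at that level 66.5% were so bounded. Rela (-0.29 to 0.11 on the log2 scale), Nfkb2 (-0.25 to 0.15), Chuk (-0.23 to 0.20) and Myd88 (-0.15 to 0.27) were among the most closely bounded. Tlr1 (-2.70 to 1.96), Tlr4 (-0.74 to 2.11) and Tnfaip3 (-1.61 to 0.72) left room for more than a 2-fold difference in at least 1 direction.

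**Figure D1:**
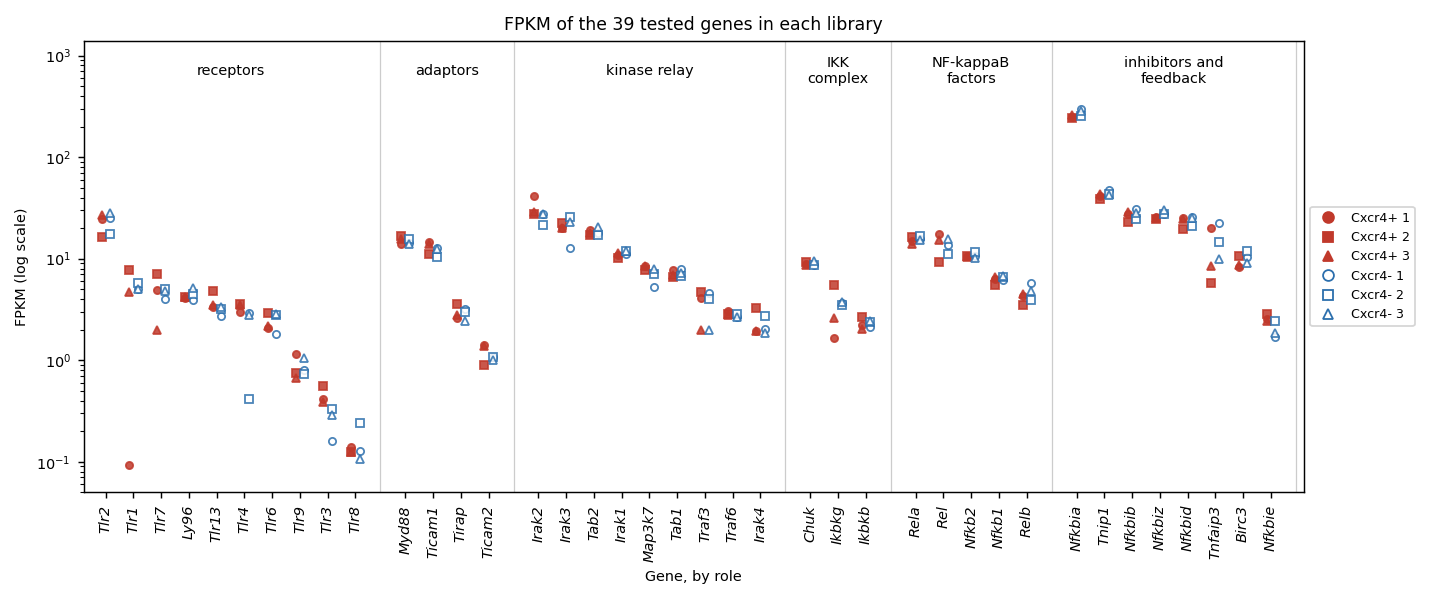
FPKM on a log scale (vertical axis) of the 39 tested genes, grouped by role and ordered by mean level, with filled red points for Cxcr4+ and open blue points for Cxcr4- libraries. The points of most genes lie close together, Nfkbia stands highest at 244.5 to 297.8 FPKM, and single libraries stand far below the rest for Tlr1 and Tlr4.

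**Figure D2:**
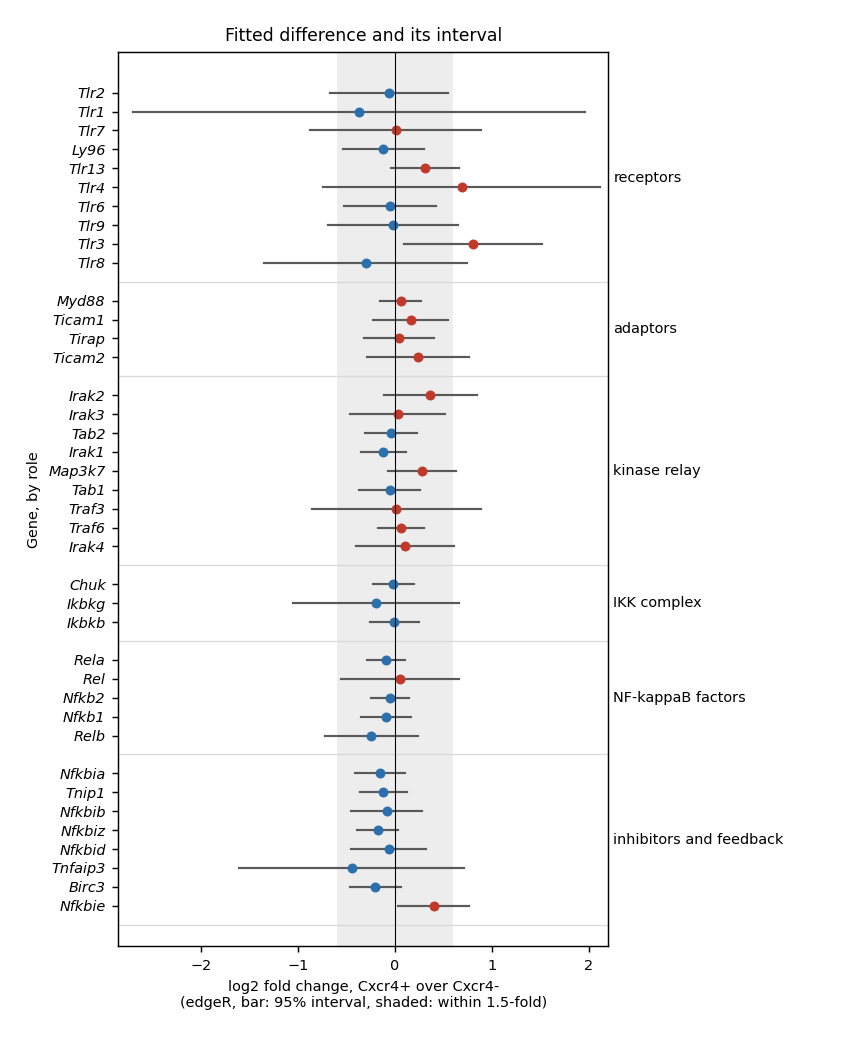
Fitted log2 fold change of each gene (points, red above and blue below 0) with its 95% interval (bars), by role, and the range within 1.5-fold shaded. All intervals cross 0 except those of Tlr3 and Nfkbie, which lie just above it, and neither gene passed adjustment over all genes.

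Among the receptors, Tlr2, which pairs with Tlr1 or Tlr6 to read bacterial lipoproteins, was the most abundant. It had 24.8, 16.3 and 26.8 FPKM in Cxcr4+ replicates 1 to 3 and 25.1, 17.5 and 28.1 in Cxcr4- replicates 1 to 3. Both libraries numbered 2 lay below the 4 others, and the groups overlapped. The fitted log2 fold change was -0.06 (SE 0.26). The other receptors were lower. Tlr1 and Tlr7 had means of 4.74 and 4.64 FPKM over the 6 libraries, Ly96, the lipopolysaccharide-binding partner of Tlr4, 4.33, and Tlr13, which reads bacterial ribosomal RNA, 3.48. Tlr6 had a mean of 2.44 FPKM, Tlr9, a sensor of unmethylated CpG DNA, 0.859, and Tlr8 0.144. Tlr5, the flagellin receptor, had 0 counts in 5 libraries and 4 counts in Cxcr4- replicate 2. Tlr5 did not pass the filter on low counts (minimum count 10, total 15) and was not tested.

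Tlr3, the endosomal receptor of double-stranded RNA, was the receptor with the smallest p. It had 0.416, 0.560 and 0.391 FPKM in the Cxcr4+ libraries and 0.160, 0.332 and 0.291 in the Cxcr4- libraries. All Cxcr4+ values lay above all Cxcr4- values, on 121 to 172 against 48 to 97 counts. The fitted log2 fold change was 0.80 (SE 0.31, interval 0.09 to 1.52, edgeR adjusted p = 0.998), so it did not pass. With 1 library left out it ranged from 0.57, without Cxcr4- replicate 1, to 0.97, without Cxcr4- replicate 2. The summed FPKM of fibroblast markers was also higher in every Cxcr4+ library. By single marker, 4 of the 8 tested did not overlap between the groups, all of them higher, while Fap stood at -0.31. The part of these markers in the Tlr3 values was not tested. The deposited table places Tlr3 at 45848702 to 45864117 on the reverse strand of chromosome 8 in GRCm39, the build of its coordinates.

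Tlr4, the lipopolysaccharide receptor, had 2.98, 3.60 and 3.50 FPKM in Cxcr4+ and 2.90, 0.410 and 2.79 in Cxcr4- libraries. The groups did not overlap, but most of the difference came from Cxcr4- replicate 2, which held 128 counts where the other libraries held 816 to 1175. The fitted log2 fold change was 0.69 (SE 0.61, edgeR adjusted p = 1), and it came to 0.20 without that library. The partner Ly96 showed no such drop, with 4.46 FPKM in Cxcr4- replicate 2 and 3.88 to 5.18 elsewhere. Cd14, the co-receptor that hands lipopolysaccharide to Tlr4 and Ly96, had 592 FPKM there and 506 to 583 in the others.

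Tlr1 was far lower in another single library. It had 0.0921, 7.75 and 4.74 FPKM in Cxcr4+ replicates 1 to 3, against 5.06, 5.78 and 5.05 in the Cxcr4- libraries. In counts these were 20 in Cxcr4+ replicate 1 and 886 to 1523 in the rest. The fitted log2 fold change was -0.37 (SE 0.998, edgeR adjusted p = 1), and it came to 0.21 when Cxcr4+ replicate 1 was left out and to -1.10 when Cxcr4+ replicate 2 was. Tlr7, the endosomal receptor of single-stranded RNA, had 4.95, 7.14 and 1.98 FPKM in Cxcr4+ and 3.997, 5.04 and 4.76 in Cxcr4- libraries, so that Cxcr4+ replicate 3 lay lowest. A lowest library at under 0.5 of the next lowest was seen for 3 of the 36 members whose mean reached 1 FPKM, the receptors Tlr1, Tlr4 and Tlr7, beside 2% of all genes at that level. The bound of 0.5 was not in the plan, and Tlr7 met it narrowly, at 0.495.

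Tlr1 and Tlr6 are neighbours on chromosome 5, at 65082022 to 65090904 and 65109374 to 65117391, and are close relatives. In GENCODE M21 transcripts, 15.4% of the 50-base windows of Tlr1 and 12.3% of those of Tlr6 also occurred in another gene, most often in each other, so fragments from these stretches could be counted for either. The longest run that their coding sequences share has 229 bases, from base 1468 to 1696 of the Tlr1 coding sequence and from 1507 to 1735 of that of Tlr6. It is shown because a fragment inside it cannot name its gene.
Tlr1 and Tlr6 shared run: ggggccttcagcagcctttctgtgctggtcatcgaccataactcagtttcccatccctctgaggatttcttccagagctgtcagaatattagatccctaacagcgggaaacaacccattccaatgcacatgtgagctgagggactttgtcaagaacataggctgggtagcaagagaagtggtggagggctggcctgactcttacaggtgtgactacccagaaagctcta
Tlr6 had 2.10, 2.94 and 2.18 FPKM in Cxcr4+ and 1.797, 2.81 and 2.83 in Cxcr4- libraries, and Cxcr4+ replicate 1, where Tlr1 was lowest, was within that range. The sources used here do not give the authors' handling of shared fragments, so the split between these receptors is uncertain.

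**Figure D3:**
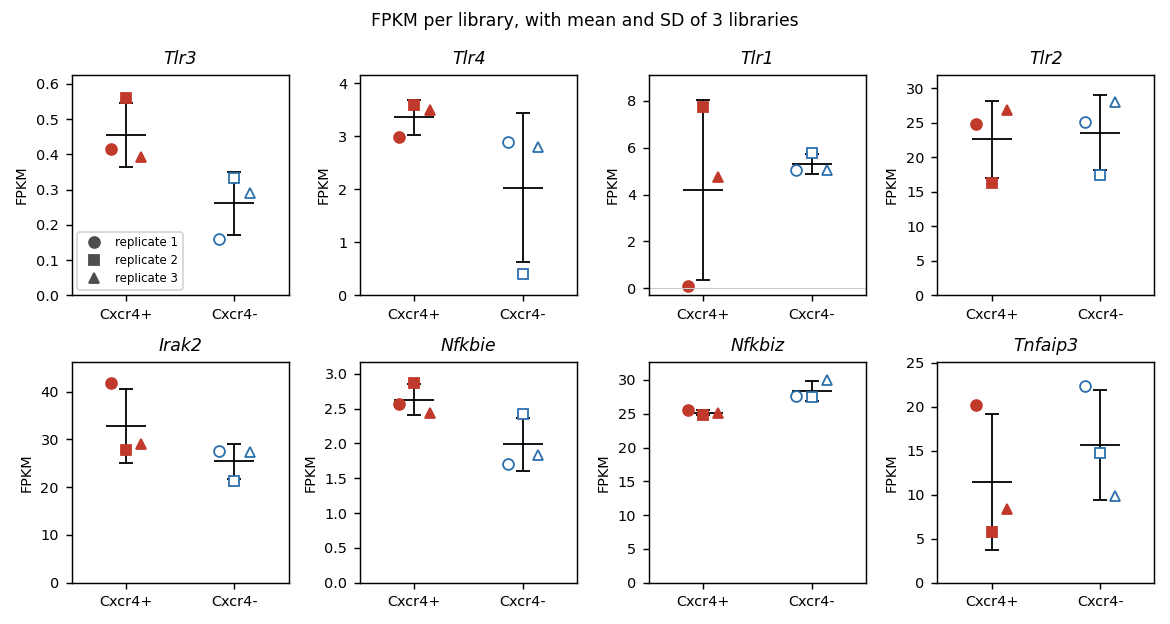
FPKM per library (vertical axes, each from 0 or just below it) of 8 genes, with the mean and SD of 3 libraries as black lines. Tlr3, Tlr4, Irak2 and Nfkbie lie higher and Nfkbiz lower in every Cxcr4+ library, while Tlr1 and Tlr4 each have 1 library near 0 and Tnfaip3 spreads from 5.77 to 22.3 FPKM.

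Of the adaptors none passed the test, and for 3 of the 4 the interval lay within 1.5-fold. Myd88, the shared adaptor, was the most abundant, with 13.9, 16.7 and 15.5 FPKM in Cxcr4+ and 14.3, 15.7 and 14.1 in Cxcr4- libraries. Those ranges overlapped, and the fitted log2 fold change was 0.06 (SE 0.09). Ticam1, known as TRIF, which serves Tlr3 and Tlr4, had 13.2 ± 1.88 FPKM (SD, n = 3) against 11.8 ± 1.195 and a log2 fold change of 0.16. Its partner Ticam2 stood at 0.24 and Tirap, which brings Myd88 to surface receptors, at 0.04. All 4 values were positive, and none passed the test. Several of these loci overlap expressed neighbours. Ticam2 overlaps Tmed7 over 14299 bases on the same strand, and on the opposite strand Myd88 overlaps Acaa1a over 366 bases and Tirap overlaps Srpr over 117. These overlaps are of whole gene spans, introns included. Of the 50-base windows of GENCODE M21 transcripts, 14.7% for Ticam2, 7.42% for Myd88 and 9.7% for Tirap also occurred in another gene, on either strand. The sources used here do not say whether counting used strand or how shared fragments were handled. Reads from the shared stretches may thus have been counted for either gene.

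In the kinase relay, Irak2, a kinase-like protein that prolongs signalling from Myd88, was the most abundant. It had 41.8, 27.8 and 29.0 FPKM in Cxcr4+ and 27.6, 21.3 and 27.3 in Cxcr4- libraries. The groups did not overlap, though the gap between 27.8 and 27.6 was small and Cxcr4+ replicate 1 stood apart. The fitted log2 fold change was 0.37 (SE 0.21, edgeR adjusted p = 0.999), and 0.14 without that library. Irak2 lies at 113615428 to 113671987 on chromosome 6 (GRCm39) and overlaps Gm43912, a same-strand entry of 10.1 FPKM, over 538 bases. Irak3, the family member that restrains the path and is known as IRAK-M, had 20.02, 22.4 and 20.1 FPKM against 12.9, 25.6 and 23.0, with Cxcr4- replicate 1 lowest (log2 fold change 0.03). The kinases Irak1 and Irak4 had log2 fold changes of -0.12 and 0.10.

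Map3k7 had 8.49, 7.72 and 8.44 FPKM in Cxcr4+ and 5.31, 7.08 and 7.90 in Cxcr4- libraries. These overlapped, and the log2 fold change was 0.28 (interval -0.07 to 0.63). Its binding partners Tab1 and Tab2 stood at -0.05 and -0.04. The ubiquitin ligase Traf6 had 2.88 ± 0.137 against 2.75 ± 0.109 FPKM, with a log2 fold change of 0.06. Traf3, which serves the interferon branch and holds back the non-canonical NF-kappaB path, had 4.10, 4.71 and 1.97 FPKM against 4.56, 3.99 and 2.01. Both libraries numbered 3 were the lowest for Traf3, and its log2 fold change was 0.01 (interval -0.86 to 0.88).

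Of the IKK complex, the kinase Chuk, IKK-alpha, was the most abundant, and it had the smallest ratio of highest to lowest library of the 39 genes, 1.09, with 8.85, 9.18 and 8.69 FPKM against 8.67, 8.73 and 9.48. All 6 values lay close together (log2 fold change -0.02). Ikbkb, IKK-beta, the main kinase of the canonical path, had 2.32 ± 0.342 against 2.31 ± 0.165 FPKM. The scaffold Ikbkg, NEMO, varied far more in the Cxcr4+ libraries, with 1.64, 5.54 and 2.60 FPKM, than in the Cxcr4- libraries, with 3.70, 3.50 and 3.77. Its log2 fold change of -0.20 (interval -1.05 to 0.66) came to 0.11 when Cxcr4+ replicate 1 was left out and to -0.76 when Cxcr4+ replicate 2 was. Ikbkg overlaps G6pdx, a gene of 57.1 FPKM on the opposite strand, over 19712 bases of chromosome X, introns included. Of the 50-base windows of Ikbkg transcripts, 4.38% also occurred in another gene, most often in G6pdx on the opposite strand.

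None of the 5 NF-kappaB factors passed the test, and for 3 of them the interval lay within 1.5-fold. Rela, the p65 subunit and main activating partner, was the most abundant, with 14.8, 16.2 and 13.9 FPKM in Cxcr4+ and 15.7, 16.7 and 15.1 in Cxcr4- libraries. The ranges overlapped, and the fitted log2 fold change was -0.09 (SE 0.08). Nfkb1 and Nfkb2, the precursors of p50 and p52, had log2 fold changes of -0.09 and -0.05. Relb, the partner of p52 in the non-canonical path, had 4.27, 3.50 and 4.51 FPKM against 5.73, 3.89 and 4.801 (log2 fold change -0.24). That value came to -0.064 when Cxcr4- replicate 1 was left out and to -0.40 when Cxcr4- replicate 2 was. Rel, the factor c-Rel of immune cells, had 17.5, 9.34 and 15.1 FPKM against 13.7, 11.1 and 15.7 (0.05). For Rel and Relb both libraries numbered 2 were the lowest of the 6.

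Inhibitors and feedback genes were the most abundant of the roles, with a summed FPKM between 369.7 and 401.4 in Cxcr4+ libraries and between 401.2 and 463.9 in Cxcr4- libraries. Fitted log2 fold changes were negative for 7 of the 8, with a median of -0.14, and 0 passed the test in either direction. Nfkbia, IkappaB-alpha, which is rebuilt at once after NF-kappaB is freed, alone gave 37.8 to 42.5% of the summed FPKM of the 40 genes in a library. It had 248.9, 244.5 and 260.3 FPKM in Cxcr4+ and 297.8, 255.9 and 282 in Cxcr4- libraries. Only Cxcr4+ replicate 3 reached into the Cxcr4- range, and the log2 fold change was -0.16 (SE 0.11, interval -0.41 to 0.10, edgeR adjusted p = 0.999).

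Nfkbiz, IkappaB-zeta, a nuclear relative that helps NF-kappaB switch on a second wave of genes, had 25.5, 24.8 and 25.1 FPKM in Cxcr4+ and 27.6, 27.4 and 30.0 in Cxcr4- libraries. The groups did not overlap, but the difference was small (-0.18 on the log2 scale with SE 0.09, interval -0.39 to 0.03, edgeR adjusted p = 0.999). Nfkbie, IkappaB-epsilon, went the other way. Its values were 2.57, 2.87 and 2.43 FPKM against 1.71, 2.42 and 1.83, again without overlap, with 2.43 and 2.42 as the nearest values. The log2 fold change was 0.40 (SE 0.16, interval 0.03 to 0.77, edgeR adjusted p = 0.998). The deposited GRCm39 coordinates place Nfkbiz at 55631738 to 55659262 on chromosome 16 and Nfkbie at 45866629 to 45874095 on chromosome 17. Nfkbib and Nfkbid, IkappaB-beta and the nuclear IkappaB-NS, stood at -0.09 and -0.06.

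Tnfaip3, the ubiquitin-editing enzyme A20 that shuts the path down, was the most uneven gene of this role. It had 20.3, 5.77 and 8.38 FPKM in Cxcr4+ and 22.3, 14.7 and 9.92 in Cxcr4- libraries, and the libraries numbered 1 were the highest of each group. The log2 fold change of -0.44 (SE 0.50, edgeR adjusted p = 1) became -1.16 without Cxcr4+ replicate 1 and -0.05 without Cxcr4- replicate 1. Its partner Tnip1 was even, at 41.0 ± 1.99 against 44.4 ± 2.61 FPKM (log2 fold change -0.12). Birc3, the ubiquitin ligase cIAP2, had 9.17 ± 1.203 against 10.5 ± 1.36 FPKM (-0.20).

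NF-kappaB is known to act on its inhibitors through kappaB sites in their promoters. RefSeq windows of 300 bases (GRCm38.p6), from 250 before to 50 after a gene start, were found for 31 of the 40 genes, 45 windows in all. The pattern planned for this search was looser. On either strand it matched 32 of the 45 windows (71.1%), beside 50.8% of windows of all genes. The stricter kappaB consensus was not in the plan. Searched on both strands, it matched 13 of the 45 windows (28.9%), beside 4.51% of 32851 windows of all genes. These belong to 11 genes: Nfkbia, Nfkbid, Nfkbie, Tnfaip3, Tnip1, Nfkb2, Rel, Map3k7, Traf3, Tlr2 and Tlr3. Windows of 1 gene can share bases, and matches can overlap. A match describes the letters and shows no binding, and its absence says only that these letters are not in the window. Below are 150 bases before the start of the most abundant inhibitor, the one whose groups did not overlap upward, the most uneven one and its partner, with consensus matches in capitals.
Nfkbia promoter, chr12:55492648-55492797, reverse strand: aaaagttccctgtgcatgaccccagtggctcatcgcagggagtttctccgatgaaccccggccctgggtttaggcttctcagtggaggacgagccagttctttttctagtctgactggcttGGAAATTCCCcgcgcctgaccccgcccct
Nfkbie promoter, chr17:45555550-45555699, forward strand: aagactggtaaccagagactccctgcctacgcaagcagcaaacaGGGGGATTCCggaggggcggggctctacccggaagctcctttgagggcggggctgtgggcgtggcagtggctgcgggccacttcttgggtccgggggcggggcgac
Tnfaip3 promoter, chr10:19015411-19015560, reverse strand: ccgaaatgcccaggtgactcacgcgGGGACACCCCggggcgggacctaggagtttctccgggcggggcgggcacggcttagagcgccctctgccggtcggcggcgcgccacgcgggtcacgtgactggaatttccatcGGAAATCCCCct
Tnip1 promoter, chr11:54962941-54963090, reverse strand: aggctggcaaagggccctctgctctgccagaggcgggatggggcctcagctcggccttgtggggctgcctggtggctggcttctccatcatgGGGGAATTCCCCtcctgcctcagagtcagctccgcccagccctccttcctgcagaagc
The matches nearest to the start begin 29 bases before it in Nfkbia, 106 in Nfkbie and 12 in the Tnfaip3 window shown. A window at another annotated start of Tnfaip3, chr10:19011914-19012213, held 0 matches. In Tnip1, 3 overlapping matches form the single capital run. None of the 4 genes passed the test between the groups.

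Part of the path was ordered by library number. By FPKM, both libraries numbered 2 were lower than the 4 others for 8 of the 39 genes (Tlr2, Ticam1, Tab1, Tab2, Rel, Relb, Nfkbib and Nfkbid), beside 9.74% of all genes tested, and higher for 6, beside 26.2%. The same held for 15 of 30 tested NF-kappaB target genes on the lower side and for 3 on the higher side. The summed FPKM of the target list was 3648 and 3615 in the libraries numbered 2 and 5328 to 5893 in the others. Immediate early genes, known to respond to cell handling, summed to 829.5 and 906.9 FPKM in the libraries numbered 2 and 1264 to 1536 in the others, and their part in this was not tested. Cxcr4+ replicate 2 was the lowest library for 14 of the 39 genes by FPKM, and by TMM-scaled counts for 17. The share of all genes lowest in Cxcr4+ replicate 2 is not given here, so these counts are not read as a trait of the members. The labels give no meaning to the replicate number.

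**Figure D4:**
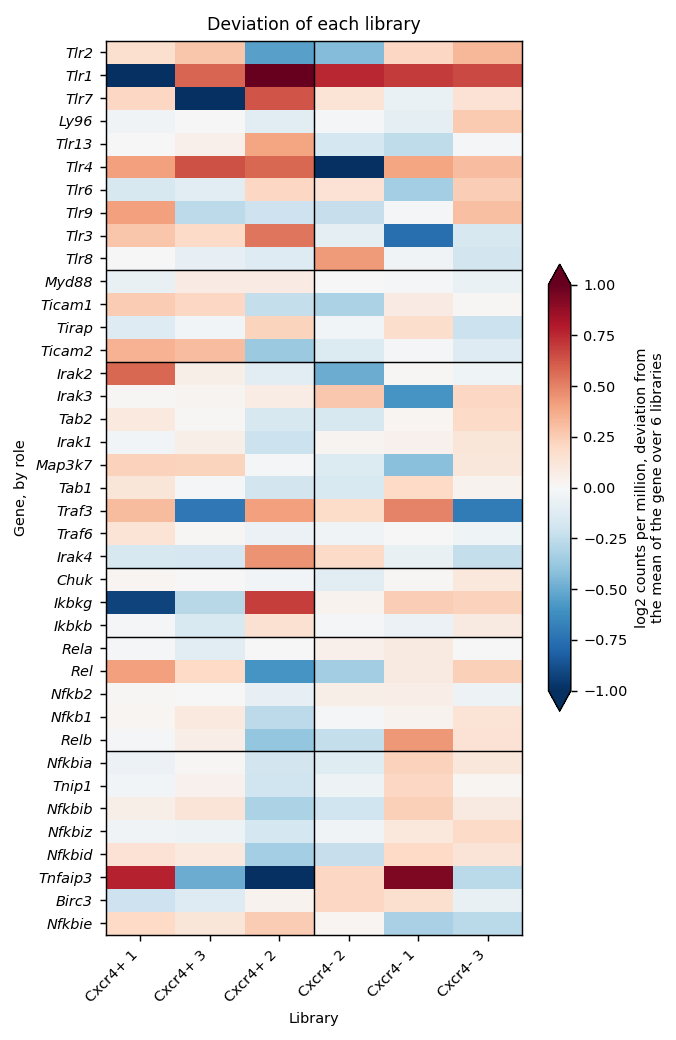
Deviation of each library (columns, those numbered 2 side by side in the middle) from the mean of the gene over the 6 libraries, in log2 CPM (counts scaled by TMM library sizes), for the 39 tested genes by role. Blue cells in the 2 middle columns mark genes such as Tlr2, Rel, Relb and Nfkbid that were lowest in both libraries numbered 2, and isolated dark cells mark Tlr1, Tlr4, Tlr7 and Tnfaip3.

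Other genes of the path, 75 in 4 lists, were read in the same fit. Of the 65 tested, 0 were called higher and 0 lower, beside 0.0312% of all genes called in either direction. An unadjusted p under 0.05 was reached by 4, beside 4.85% of all genes. Without overlap of the groups, 3 lay higher and 4 lower, beside 5.5% and 4.87% of all genes. Of the receptor accessories, 6 of 9 were tested, with 4 positive and 2 negative and a median of 0.04. Cd14 had 558 ± 21.96 against 546 ± 43.3 FPKM, the chaperone Hsp90b1 231 ± 12.1 against 238 ± 14.6, and Unc93b1, which carries endosomal receptors to their place, 94.1 ± 3.93 against 97.1 ± 3.19. Cd180, a receptor relative known to restrain Tlr4, was the gene of smallest p in the 4 lists. It had 2.86, 3.95 and 3.05 FPKM in Cxcr4+ and 1.72, 1.61 and 2.39 in Cxcr4- libraries, without overlap, with a log2 fold change of 0.77 (SE 0.20, edgeR adjusted p = 0.953), so it did not pass. Its partner Ly86 stood at 0.15.

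In the branch of TRIF and the interferon regulatory factors, 4 of 7 tested genes were positive, with a median of 0.02. The kinase Ikbke had a log2 fold change of -0.29, the factor Irf5 -0.26, the scaffold Tank 0.16 and Irf7, the most abundant, 0.07. Among other relay genes and regulators, 10 of 22 were positive, with a median of -0.01. Sigirr, an inhibitory receptor of the family, stood at -0.38, Rnf31 and Rbck1, subunits of the linear ubiquitin ligase, at -0.14 and -0.15, their partner Sharpin at 0.14, and the RNase Zc3h12a, which clears cytokine transcripts, at -0.15.

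NF-kappaB target genes were positive for 21 of 30 tested, beside 50.1% of all genes tested, with a median of 0.10. Of the 35 listed, 12 had a mean under 1 FPKM, and none of those tested passed. The genes of smallest p went in both directions. Lcn2, a siderophore-binding protein, had 450, 342 and 538 FPKM in Cxcr4+ and 897, 630.5 and 687 in Cxcr4- libraries (-0.74 on the log2 scale with SE 0.22, edgeR adjusted p = 0.953). Saa3, an acute-phase protein, had 49.4, 27.5 and 41.7 against 69.8, 83.3 and 59.7 FPKM (-0.83, SE 0.23, edgeR adjusted p = 0.953). Neither gene had overlapping groups, and neither passed. The summed FPKM of epithelial markers was also lower in every Cxcr4+ library, from 1.81 to 3.31 against 3.50 to 6.25. By single marker, all 7 tested had a negative log2 fold change, and 3 did not overlap between the groups. The part of epithelial markers in the Lcn2 and Saa3 values was not tested. Of the 10 neutrophil markers, S100a9, Camp and Ngp had 0 counts in every library, and the summed level was 6.62 to 9.34 against 7.08 to 10.2 FPKM. Cxcr2 was lower in every Cxcr4+ library, with 0.0577, 0.229 and 0.177 FPKM against 0.297, 0.847 and 0.336 (-1.66 on the log2 scale, edgeR adjusted p = 0.998), S100a8 stood at -0.24 and Csf3r at 0.11. The part of these markers in the Lcn2 and Saa3 values was not tested. Plaur, the urokinase receptor, stood at 0.36. Ccl3, an inflammatory chemokine and the most abundant target, had 3205, 2170 and 3420 FPKM in Cxcr4+ and 2824, 1878 and 2971 in Cxcr4- libraries, lowest in both libraries numbered 2 (log2 fold change 0.19, SE 0.25).

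**Figure D5:**
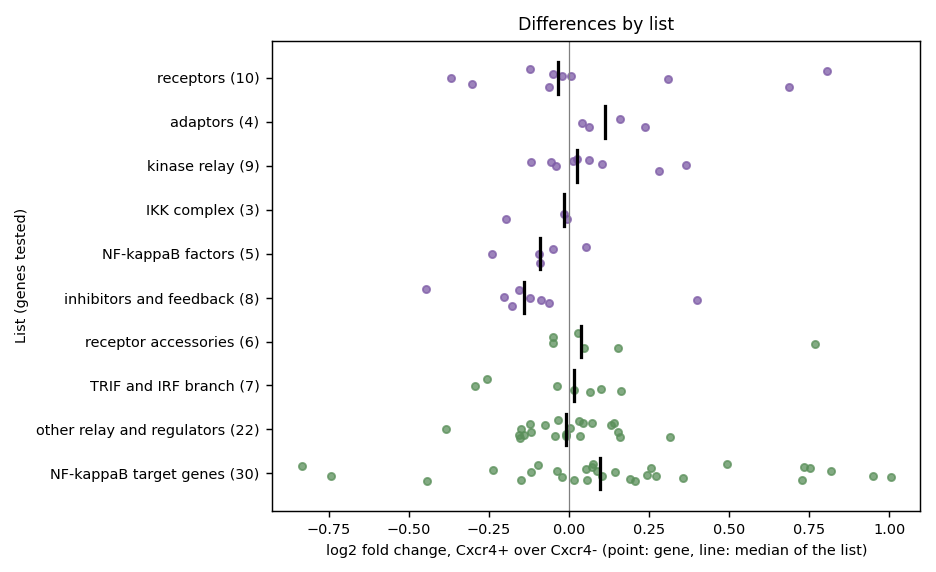
Fitted log2 fold change, Cxcr4+ over Cxcr4- (horizontal axis), of each tested gene (points) in the 6 roles (purple) and the 4 other lists of the path (green), with the median of each list as a black line. Medians lie between -0.14 for inhibitors and feedback and 0.11 for adaptors, and single genes spread to both sides of 0.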

How the data were processed

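RNA of 6 libraries, 3 of Cxcr4+ and 3 of Cxcr4- tumour macrophages, was analysed from 1 table. The tools cutadapt, HISAT2 and StringTie and the build GRCm39 are named, per the submitters' processing notes, and the sources used here do not give versions, annotation, counting settings or strand. The authors deposited an estimated count per gene and library, whole numbers that rounding did not change. FPKM, in which the authors divided fragments by gene length and by the size of the library, was deposited beside it. For the values given here, FPKM was set to 0 wherever the count was 0. A count is not always 1 read, as 43.2% of counts from 1 to 20 were multiples of 4, where an even spread gives 25%. Counts were fitted over all genes with edgeR 4.0.16 in R 4.3.3 (filterByExpr with minimum count 10 and total 15, TMM, quasi-likelihood with the earlier dispersion method, group as the sole term), with Benjamini-Hochberg adjustment. The filter kept 16031 genes. The SE is the size of the log2 fold change over the square root of F, and intervals use the t quantile at the total degrees of freedom. The fit was tested on simulated data. Alternatives used DESeq2 1.42.0, limma 3.58.1 on log2(FPKM + 1) and log2(FPKM + 0.1), other scalings and filters, blocks and left-out libraries.

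The members and lists were chosen with earlier results of these data known. Values in every library are given for members that were called, whose groups did not overlap, with an unadjusted p under 0.05, with a log2 fold change of at least 0.5 in size and a mean of at least 1 FPKM, or highest in their role, 10 in all. From each other list, the 3 genes of smallest p and the 2 of highest mean were named. Per-library values of Tlr1, Tlr6, Tlr7, Irak3, Map3k7, Traf3, Ikbkg, Rel, Relb and Tnfaip3, and the value of Sharpin, were added after seeing them. The counts of genes with a single low library, and of genes ordered by library number, were not in the plan either. Promoters came from RefSeq (GRCm38.p6) and transcripts from GENCODE M21, and figures were drawn with matplotlib 3.10.9. Protein sequences were not used here.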

Additional observations from a re-analysis of the deposited data

How the results depend on the processing

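Over the 17 other fits, 0 of the 39 tested genes were called in any, and 19 kept the sign of their fitted difference in all. The lowest adjusted p among them was 0.452, for Nfkbie with the libraries numbered 2 as a block. Of the 10 genes given in every library by rule, Tlr2 ranged from -0.26 to 0.15 when 1 library was left out, positive at 0.15 without Cxcr4+ replicate 2, at 0.01 without Cxcr4- replicate 1 and at 0.09 without Cxcr4- replicate 3, while Chuk ranged from -0.069 to 0.035, positive without Cxcr4- replicate 3. The cause was not tested. No other alternative changed the sign of those 10. The median over the members ran from -0.07 to 0.01 when 1 library was left out.

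Over all genes, 5 were called by edgeR, 53 by DESeq2 and 2 by limma-trend on log2(FPKM + 1), and 1 to 9 when 1 library was left out (1 with Cxcr4+ replicate 1 left out, as for Cxcr4+ replicate 3 and for Cxcr4- replicate 1, against 9 with Cxcr4+ replicate 2 left out). With the replicate block edgeR called 0 genes, and 4 members had an unadjusted p under 0.05. The share of all genes at that level in the replicate block fit is not given here. The count of 4 is therefore not read as a trait of the members. The labels do not say whether the numbers pair the samples, and the main fit did not use them. The correlation of deviations from the group means was 0.04, 0.14 and 0.05 for replicates 1, 2 and 3, 2 of them under 0.1. The 0.14 of the libraries numbered 2 was the highest of any pairing, while Cxcr4+ replicate 1 correlated best with Cxcr4- replicate 3 (0.052). Whether the samples are paired was therefore left undecided. Tlr8, on 21 to 50 counts, had an SE of 0.45, and Tlr1, on 20 to 1523 counts, 0.998, so the precision did not follow the counts alone.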
